A study of Homo sapiens with 2 samples.

Results

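SLC16A3, SOD2, ITPR2, BCAR1 and LRRC56 are 5 protein-coding genes with 3 summits of WSTF ChIP-seq peaks each, inside the gene or at most 1 kb away from it, in SW620 cells. A summit is the single base at which a called peak is highest. The genes were selected on this number and on the score of their highest summit, so neither the count nor the height of their summits is a finding here. They are 5 of 20037 protein-coding genes on chromosomes 1 to 22, X and Y, and their 15 summits are part of a list of 2697. In the whole list 13 genes (0.0649% of protein-coding genes) held 3 summits, 151 held 2 and 2601 held 1. No gene held more.

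SW620 is an established human colorectal adenocarcinoma line, labelled as colon. WSTF, the product of BAZ1B, was the antibody's target, and input DNA was the control. The series has 2 samples of SW620 genomic DNA, 1 with IP in its title and 1 without, and the analysed list is not tied to either. The design text describes cells overexpressing WSTF, whereas the series title speaks of its knockdown, so the level of WSTF in these cells cannot be told from the descriptions. With 1 list there are no replicate values, no depth and no second condition, and every statement below is a description of positions and scores.

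WSTF is a bromodomain protein that works with the ATPase SMARCA5 in nucleosome remodelling. Remodellers of this family slide and space nucleosomes and act at promoters, at replicating chromatin and at damaged DNA. A gene can have several promoters, each with its own transcription start, and peaks of a remodeller can therefore lie deep inside the outer limits of a gene and still be at a start.

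Of the 15 RefSeq starts listed for these genes, 5 had a summit within the promoter window. This window runs from 250 bases before the start to 50 after it. Of 34943 listed promoter windows in all, 1334 held a summit, but these genes were chosen for holding summits. These 5 windows are shown because they are where the summits and the starts of the genes coincide. All are RefSeq sequence of assembly GRCh38.p14, printed in the direction of transcription, with the hexamer GGGCGG or its complement CCGCCC in capitals (the GC box, a binding sequence of SP and KLF factors). Starts were listed for 4 of the 5 genes, with none listed for ITPR2.
SLC16A3, chr17:82228792-82229091, plus strand: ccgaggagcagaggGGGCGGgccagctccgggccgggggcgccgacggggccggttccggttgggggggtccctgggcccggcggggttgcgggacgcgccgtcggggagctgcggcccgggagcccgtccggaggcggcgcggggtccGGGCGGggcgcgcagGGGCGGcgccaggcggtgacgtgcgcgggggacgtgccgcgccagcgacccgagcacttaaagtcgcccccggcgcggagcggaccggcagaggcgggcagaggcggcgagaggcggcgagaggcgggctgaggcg
SOD2, chr6:159693192-159693491, minus strand: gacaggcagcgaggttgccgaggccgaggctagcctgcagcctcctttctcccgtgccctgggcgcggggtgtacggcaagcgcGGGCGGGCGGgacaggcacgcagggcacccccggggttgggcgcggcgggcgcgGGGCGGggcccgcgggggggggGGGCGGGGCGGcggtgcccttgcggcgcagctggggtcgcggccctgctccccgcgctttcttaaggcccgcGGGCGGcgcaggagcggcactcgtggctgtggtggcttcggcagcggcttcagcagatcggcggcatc
SOD2, chr6:159727335-159727634, minus strand: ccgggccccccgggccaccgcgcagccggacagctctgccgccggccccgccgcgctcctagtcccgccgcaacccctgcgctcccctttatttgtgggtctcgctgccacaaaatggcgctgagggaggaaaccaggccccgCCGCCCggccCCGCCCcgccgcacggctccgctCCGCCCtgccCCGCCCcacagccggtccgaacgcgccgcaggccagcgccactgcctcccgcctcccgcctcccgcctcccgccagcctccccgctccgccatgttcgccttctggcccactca
BCAR1, chr16:75265958-75266257, minus strand: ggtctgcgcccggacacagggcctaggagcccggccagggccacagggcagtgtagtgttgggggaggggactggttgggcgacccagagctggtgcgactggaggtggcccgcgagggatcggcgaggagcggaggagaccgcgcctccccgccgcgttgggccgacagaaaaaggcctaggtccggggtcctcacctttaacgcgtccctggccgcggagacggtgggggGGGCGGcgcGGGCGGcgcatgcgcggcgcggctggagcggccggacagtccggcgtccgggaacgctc
LRRC56, chr11:518738-519037, plus strand: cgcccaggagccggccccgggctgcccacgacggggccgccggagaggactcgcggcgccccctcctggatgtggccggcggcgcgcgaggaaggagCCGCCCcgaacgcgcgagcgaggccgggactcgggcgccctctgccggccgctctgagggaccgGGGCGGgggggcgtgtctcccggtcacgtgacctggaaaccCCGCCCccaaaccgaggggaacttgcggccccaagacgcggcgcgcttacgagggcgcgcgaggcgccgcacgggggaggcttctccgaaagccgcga

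Counted from the 5′ end of each window, the summit was base 162 in SLC16A3, base 16 and base 58 in the SOD2 windows in the order shown, base 228 in BCAR1 and base 9 in LRRC56. The summits of SLC16A3 and BCAR1 were thus nearest to the start, and those of LRRC56 and of the first SOD2 window lay at the far upstream edge.

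The windows with a summit were richer in G and C than the other listed promoter windows of the same genes. G + C content was 82.67% in SLC16A3, 78.33% and 77.33% in SOD2, 78.0% in LRRC56 and 74.33% in BCAR1. In the 10 windows of these genes that held no summit it ran from 57.67% to 70.0%, so the groups did not overlap. The number of CpG dinucleotides behaved alike, at 37 to 51 per window with a summit and 6 to 30 without. The medians of the whole list differed in the same direction: the 1334 listed windows with a summit had a median G + C content of 70.67% and 33 CpGs, against 58.0% and 12 in the 33609 windows without one. There the groups did overlap, with G + C quartiles of 65.67% and 75.33% with a summit and 46.67% and 67.33% without. The direction of the contrast inside these genes is therefore not particular to them.

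**Figure D1:**
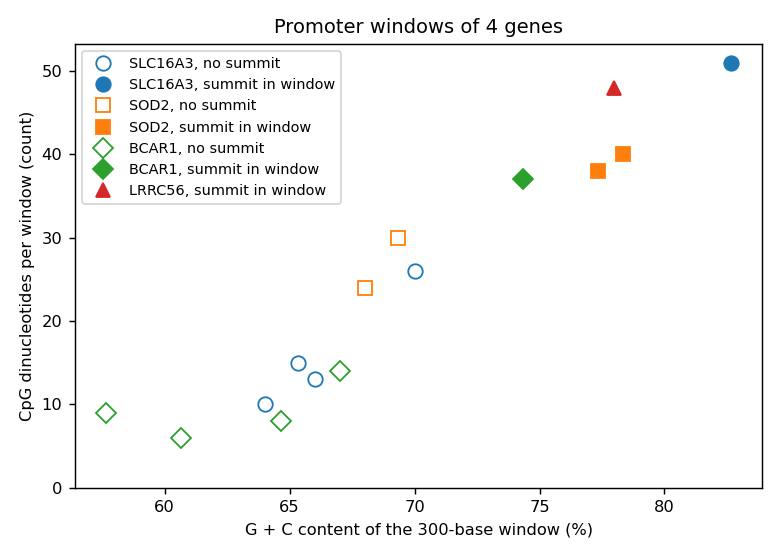
Each point is 1 listed promoter window of 300 bases, with its G + C content in percent on the x axis and its count of CpG dinucleotides on the y axis. Filled symbols hold a summit and open symbols do not. The 5 filled points, from 74.33% to 82.67% G + C, lie to the right of and above all 10 open points.

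The motif search covered both strands and counted overlapping matches. GGGCGG was found in all 5 windows with a summit, 18 matches in all, and in 7 of the 10 without. It occurs in 44.9% of 34943 listed promoter windows and in 84.8% of those that hold a summit. SOD2 had the most matches, 6 in the window at its lower start and 4 in the window it shares with WTAP, SLC16A3 and LRRC56 had 3 each, and BCAR1 had 2. The shorter motif ACGTG, the core to which hypoxia-inducible factors bind, was present in SLC16A3 with 2 matches and in LRRC56 with 2, against 21.4% of all windows. In LRRC56 both lie in a single CACGTG, the E-box bound by MYC and USF proteins, which reads the same on both strands (7.23% of all windows). CCAAT (34.6%), TATAAA (11.6%) and TGACGTCA (1.84%) were not found in these 5 windows.

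SLC16A3 encodes MCT4, a monocarboxylate transporter that carries lactate and protons out of glycolytic cells. The gene lies at chr17:82217934-82240086 on the plus strand. Its 3 summits had similar scores: 9.64 at position 82217921, 9.87 at 82228953 and 8.29 at 82231187. The score is the authors' own, read as −log10 of the q-value of the peak caller, and ranks summits within the list only. These summits ranked 51, 45 and 101 among 2697, which makes SLC16A3 the only one of the 5 genes whose summits were all among the highest 10% of the list.

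The lowest of these summits lay 13 bp outside the outer 5′ end of SLC16A3, 10514 bp upstream of the nearest SLC16A3 start in the promoter table. The second was 89 bp upstream of the start at 82229042. The remaining one was 1045 bp upstream of the start at 82232232, between that start and the one before it. The summits were 11032 and 2234 bp apart, the latter being the closest pair in the 5 genes. The gene overlaps the end of CSNK1D, which encodes casein kinase 1 delta, but the CSNK1D summit (82273531, score 1.67) lay 33445 bp beyond SLC16A3. On the other side the nearest summit was 5111 bp away at CCDC57 (82212823, score 3.4).

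**Figure D2:**
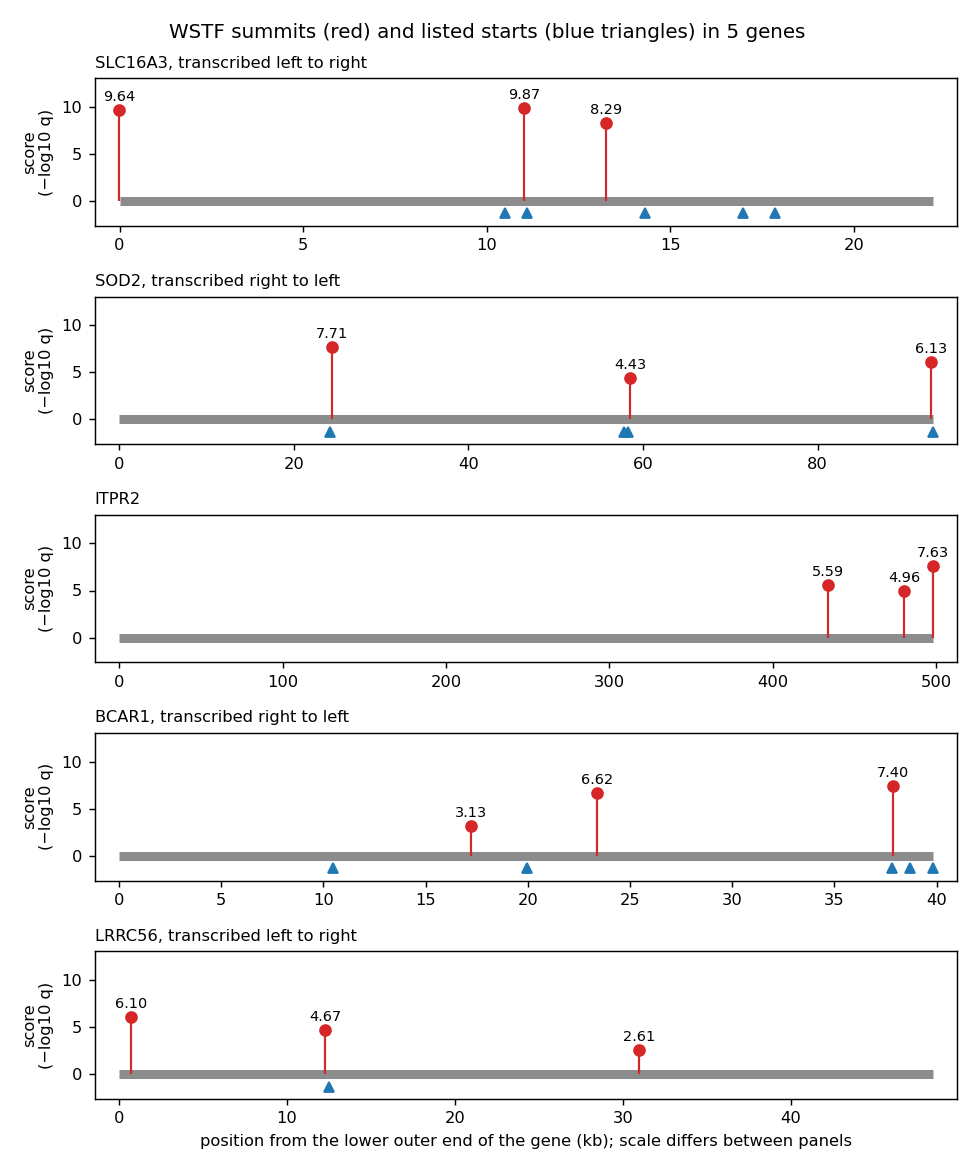
Each panel is 1 gene drawn from its lower to its upper outer end (grey bar, x axis in kb from the lower end, scale differing between panels). Red stems mark summits with their score (y axis, −log10 q) and blue triangles mark listed starts. In SOD2 each summit stands by a start. In ITPR2 all 3 lie within 63972 bp at the upper end of a gene of 497.84 kb, and its panel has no triangles because no start is listed for it.

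SOD2 encodes the manganese superoxide dismutase that turns superoxide into hydrogen peroxide in the mitochondrial matrix. It occupies chr6:159669069-159762281 on the minus strand. Its summits lay at 159693476 with a score of 7.71 (rank 122), at 159727577 with 4.43 (rank 974) and at 159762011 with 6.13 (rank 326). SOD2 was the only gene of the 5 with a listed start of its own within 300 bp of each summit: the distances were 235 bp upstream, 193 bp upstream and 270 bp downstream. The spacing was almost even, 34101 and 34434 bp.

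The upper pair of SOD2 summits is shared with other genes. The summit at 159727577 lay 71 bp downstream of a start of WTAP, a subunit of the RNA m6A methyltransferase complex, which is transcribed the opposite way from within the limits of SOD2. The summit at 159762011 lay 34 bp outside ACAT2, which encodes a cytosolic acetyl-CoA acetyltransferase, and inside SOD2-OT1, a long non-coding RNA gene. Only the summit at 159693476, the highest of the 3, had no other gene within 1 kb. A single base cannot say which of these overlapping transcripts a peak belongs to. Outside SOD2 the nearest summits were 27290 bp above, at TCP1, a chaperonin subunit gene, and MRPL18 (159789571, score 3.14), and 668918 bp below, near RSPH3 (159000151, score 10.9).

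ITPR2 encodes an inositol trisphosphate receptor, a channel that releases calcium from the endoplasmic reticulum. At 497843 bp (chr12:26335352-26833194) it is the longest of the 5 genes. Its highest summit, at 26833249 with a score of 7.63 (rank 142), lay 55 bp outside the upper end. The others lay inside, 17464 bp from that end at 26815730 (score 4.96, rank 712) and 63917 bp from it at 26769277 (score 5.59, rank 464). The lower 433925 bp of the gene held no summit. No other gene of the RefSeq table came within 1 kb of any of the 3. Outside ITPR2 the nearest summit above lay 104874 bp away at INTS13, an Integrator subunit gene, and FGFR1OP2 (26938068, score 5.04). The nearest below lay 213194 bp away at SSPN and BHLHE41 (26122158, score 2.31).

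BCAR1 encodes p130Cas, a scaffold that is phosphorylated by SRC and FAK when integrins engage the matrix. It lies at chr16:75228181-75268007 on the minus strand and had no summit within 1 kb of either outer end. Its highest summit, 7.4 at position 75266030 (rank 157), was 23 bp upstream of the start at 75266007, which is 1 of 5 listed and lies inside the gene. This was the shortest distance to a listed start in the 5 genes. The outer SLC16A3 summit lay nearer, 13 bp, to that gene's outer 5′ end, where no start is listed. The summits at 75251590 (score 6.62, rank 271) and 75245393 (score 3.13, rank 1706) fell on either side of the start at 75248151, 3439 bp upstream and 2758 bp downstream of it. The lowest-scoring of these was below the list's median of 3.72. The outermost BCAR1 start, at 75268007, had none within 1 kb, and neither CTRB1, the chymotrypsinogen gene 3257 bp below BCAR1, nor the stretch up to CFDP1 25703 bp above it held one.

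LRRC56 encodes a leucine-rich repeat protein needed to assemble ciliary dynein arms. The gene, at chr11:506462-554912 on the plus strand, overlaps RNH1, HRAS and LMNTD2. Its highest summit, at 507187 with a score of 6.1 (rank 329), was 725 bp inside its lower end but 55 bp downstream of a start of RNH1, the ribonuclease inhibitor gene, and 11801 bp from the LRRC56 start. The summit at 518746 (score 4.67, rank 814) lay 242 bp upstream of the only listed LRRC56 start, with no other gene within 1 kb. The summit at 537398 had the lowest score of the 15, 2.61 (rank 2110), and lay 1822 bp upstream of the start of HRAS, the RAS GTPase gene that sits within LRRC56 on the opposite strand. HRAS itself had no summit in the gene or within 1 kb. Beyond LRRC56 the nearest summits lay at MIR210HG, host of the hypoxia-induced miR-210, 13568 bp above (568480, score 6.26), and at PTDSS2, 56285 bp below (450177, score 3.69).

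Side by side, the 15 summits had a median score of 6.13, with 13 of them above the list's median of 3.72 and 6 among the highest 10%. These values helped to choose the genes and are given as a description. The last gene taken in, LRRC56, had a top score of 6.10, and the first left out, SEC16A, had 6.01. Scores also varied within genes: in LRRC56 they ran from 2.61 to 6.10 and in BCAR1 from 3.13 to 7.40, while in SLC16A3 they stayed between 8.29 and 9.87.

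**Figure D3:**
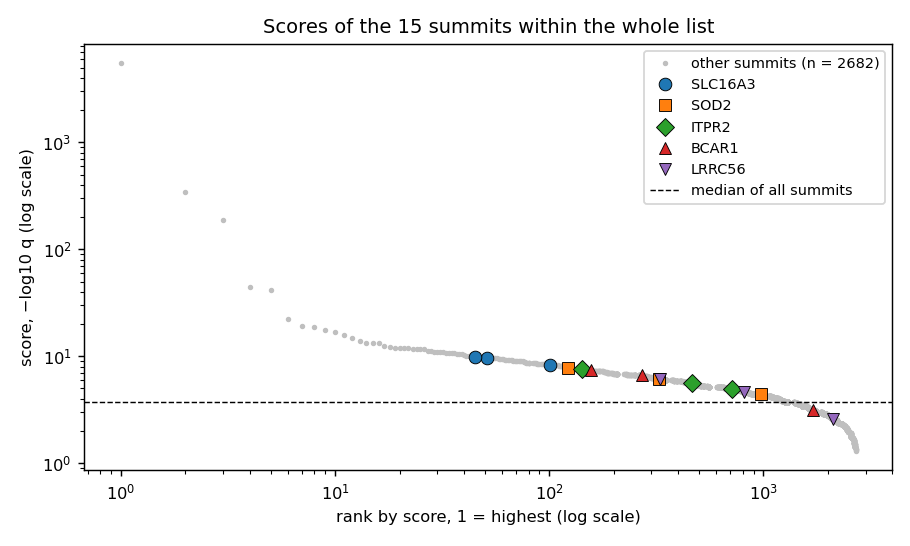
All 2697 summits by rank (x axis, log scale) and score (y axis, −log10 q, log scale), with the 15 summits of the 5 genes as coloured symbols and the list's median as a dashed line. SLC16A3 lies highest, at ranks 45 to 101, and 1 summit each of BCAR1 and LRRC56 falls below the median.

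Few of these summits sat at the outer ends of genes. Within 1 kb of an outer end of their own gene were 4 of 15, namely 1 each in SLC16A3, SOD2, ITPR2 and LRRC56. For an outer end of any gene it was 5 of 15 (33.3%), against 80.8% of the 2682 other summits. Among the latter, the 8 other genes with 3 summits had 17 of 24 (70.8%) there. A gene has a pair of outer ends, so a gene with 3 well-spaced summits holds at least 1 away from its own ends. The rule thus bears on the count for own ends, and its part in the share for ends of any gene was not tested. Starts were met more often: 7 of 15 summits (46.7%) lay within 300 bp of a listed start of some gene, and no further summit within 1 kb. Leaving out ITPR2, which has no listed start, it was 7 of 12 (58.3%). Of the 2061 other summits in or near protein-coding genes with a listed start, 74.4% were within 300 bp and 89.9% within 1 kb. Of the 24 summits of the 8 other genes, 54.2% were within 300 bp of a listed start and 70.8% within 1 kb. Apart from those of ITPR2, 3 groups of summits met no listed start within 1 kb. They were the outer and the last one of SLC16A3, the lower pair in BCAR1 and the one upstream of HRAS. The outer one of SLC16A3 lay 13 bp from the outer 5′ end of the gene, where the promoter table lists no start. Shares for listed starts depend on that incomplete table.

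The spacing of the 10 pairs of neighbouring summits in the 5 genes ranged from 2234 to 46453 bp, with a median of 15979.5 bp. Chromatin had been sheared to between 200 and 500 bp, so no pair lay within the length of a fragment. The 8 other genes with 3 summits were SEC16A, LOC107984156, SOX12, SEPTIN9, LAMA5, KAT6B, LRRC45 and ACTG1. In 5 of them a pair was less than 1200 bp apart, and in KAT6B (span 1371 bp), ACTG1 (1623 bp) and SOX12 (2178 bp) all 3 summits lay within 2500 bp. Even the smallest gap there, 635 bp in KAT6B, exceeded the sheared length. None of the 5 described genes had a pair under 1200 bp apart or all 3 summits within 2500 bp. In LOC107984156, SEPTIN9 and LAMA5, 3 of the 8, no gap was under 2234 bp either, so wide spacing is shared with genes outside the set. The ACTG1 and SOX12 genes are short, 2.83 and 4.67 kb, and the part of gene length in the spacing was not tested.

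**Figure D4:**
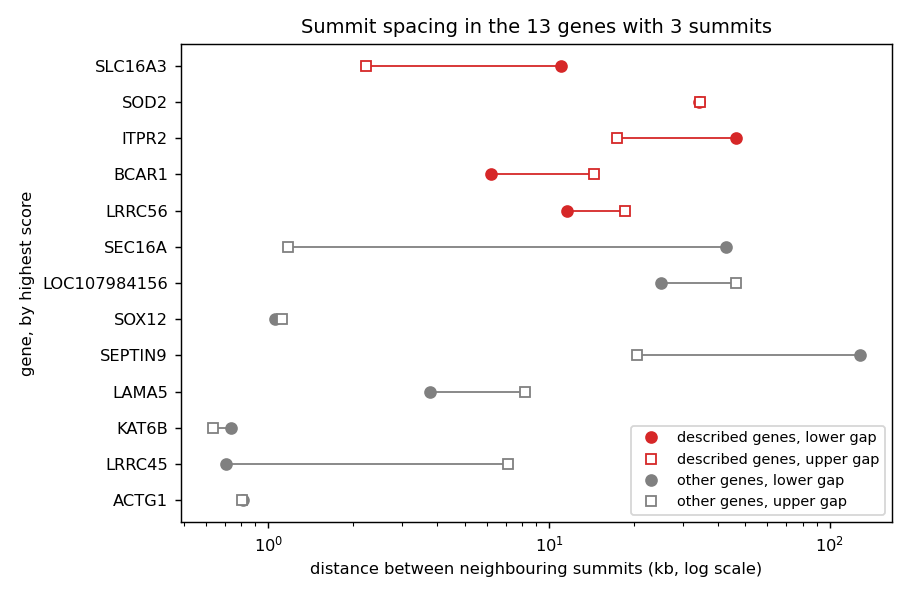
Distances between neighbouring summits (x axis, kb, log scale) in the 13 genes with 3 summits, ordered by top score; circles are the lower and squares the upper gap. The 5 described genes, in red, have no gap under 2234 bp, whereas KAT6B and ACTG1 have both gaps under 1 kb.

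Several of these genes are rich in starts. The promoter table lists 5 starts for SLC16A3, 5 for BCAR1 and 4 for SOD2, and 1 for LRRC56. Among 15843 protein-coding genes with a listed start the median was 1, and 3.19% had 4 or more. The share with 4 or more was 3.73% for genes with 1 summit and 13.5% for those with 2. Of the 7 other genes with 3 summits and a listed start, 1 had 4 or more, SEPTIN9 with 10. Gene length also differed, with a median of 29.1 kb for genes with 1 summit, 36.7 kb for those with 2 and 51.4 kb for the 8 other genes with 3, and its part in the number of summits was not tested.

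Paralogues and partners of the 5 gene products were looked up as well. Of 51 such genes, 10 (19.6%) carried a summit by the same count, where 13.8% of all protein-coding genes had one. In lactate transport 1 of 8 genes had one: SLC16A1, which encodes MCT1, with a score of 2.72 at 261 bp outside the gene. Neither BSG, the chaperone of both transporters, nor the lactate dehydrogenase genes LDHA and LDHB had any. In superoxide and peroxide defence it was 3 of 10, namely the lipid peroxidase gene GPX4 (score 3.76), the catalase gene CAT (3.23) and the peroxiredoxin gene PRDX5 (2.52). SOD1 and SOD3 had none.

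In inositol trisphosphate and calcium signalling 2 of 10 genes had summits, both phospholipases that make the messenger: PLCG1 with 1 (score 5.62) and PLCB3 with 2 (3.8 and 7.66), at its opposite ends. The receptor paralogues ITPR1 and ITPR3 had none. In adaptor signalling around BCAR1 it was 2 of 11, the phosphatase gene PTPN12 (2.36) and the paralogue NEDD9 (1.41, 49278 bp inside the gene), and the kinase genes SRC and PTK2 had none. In ciliary dynein assembly it was 2 of 12, the docking-complex gene ODAD1 (4.28) and the dynein heavy chain gene DNAH5 (3.44). The depth is unknown, so these absences are of called summits, not of WSTF.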

How the data were processed

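ChIP-seq against WSTF was done in SW620 cells; per the labels' protocols, chromatin was fixed in 1% formaldehyde for 10 min and sheared to 200 to 500 bp. Per the submitters' processing notes, Trimmomatic 0.39, Bowtie2 2.4.4, MACS2 2.2.7.1 and build hg38 were used. Per the design text, peaks were called against input; pooling of replicates is not stated there. The deposited list gives 1 base and 1 score per summit. Scores were read as −log10 q-values since the smallest deposited −log10 value, 1.31, is close to the 1.30 that a q of 0.05 gives.

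Summits were joined by position (Python 3.11.15, pandas 2.3.3) to the RefSeq gene table of GRCh38.p14, which has neither strand nor exons, so exonic, intronic and UTR places are not given. Strand and starts came from the RefSeq promoter table, which is not complete. Counting was tested on simulated data. No test was run, because the list has no replicates and its scores and counts chose the genes. The members and partner lists were chosen with earlier results of these data known. Named genes are the 5 members, genes within 1 kb of their summits, flanking genes and summits, the other genes with 3 summits, and partners with a summit; a few partners without one were named after their values were seen. Alternatives varied the window, score threshold, merging and assignment of summits.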

Additional observations from a re-analysis of the deposited data

How the results depend on the processing

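The set of genes with 3 summits depends on how summits are counted. Of 66 alternative values, 53 stayed within 1.5 times the reported one. Summit counts of single member genes made up 40 of the 66, and 37 of these stayed. A fall from 3 to 2 summits is within this limit, although such a gene no longer meets the rule. With no window around the gene, 3 of the 5 genes kept 3 summits (SLC16A3 and ITPR2 each have one just outside) and 6 protein-coding genes in all had 3 or more, against 13. A window of 5 kb gave 31. Using summits at or above the median score gave 3 of the 5 genes (without BCAR1 and LRRC56) and 4 in all. Counting each summit only for the gene with the nearest end gave 2 of the 5 (ITPR2 and BCAR1) and 8 in all, with 1 summit left to SLC16A3, 1 to SOD2 and 0 to LRRC56. Merging summits under 500 bp or 1 kb apart could not change the 5 genes, whose closest pair lay 2234 bp apart. A score of at least 2 could not either, as their lowest score was 2.61. These settings are among the alternatives that stayed, so the number that stayed is no measure of robustness. The number at an outer end of their own gene, 4 of 15, was 2 within 250 bp. It was 6 when a listed start of the gene within 1 kb was counted in its place, an alternative chosen after seeing the data. Partner genes with a summit, 10, numbered 5 with no window and 4 at or above the median score. The share of all protein-coding genes at these settings is not given, so these counts cannot be set against a background. No paired analysis was possible because there is 1 list and it has no replicates. Depth is unknown, so the lack of a summit is not the lack of binding.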
